A study of Mus musculus with 10 samples.

Results

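Mbp and Apoe are 2 of the 46 genes named here on a mouse lncRNA and mRNA array with 60823 non-control probes. Gene names were looked up only for probes whose own name starts with A_51_P, and the other probes were not searched. The 2 genes were taken by the rule that such a probe carries a RefSeq transcript identifier of one of them. Of the 50 A_51_P probes with a transcript identifier, 1 belonged to Mbp (A_51_P349205, NM_010777) and 1 to Apoe (A_51_P171999, NM_009696). RNA came from extracellular vesicles that had been separated from whole brains of adult male C57BL/6J mice by differential ultracentrifugation. The CIE group had chronic intermittent ethanol vapor, an inhalation model of alcohol dependence, and the Control group had room air, in both cases for 8 h per day on 5 days per week over 4 weeks. Brains were collected at the end of the last exposure day. Each group had 5 arrays, called here by group and by the number in the sample's title. The p-values of group differences weigh them against the spread between samples, which may in part be technical. The labels do not state whether a sample holds 1 brain or several, so that this spread need not be that between animals.

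Myelin basic protein, encoded by Mbp, lies on the inner face of the myelin membrane and holds its layers together. In the brain it is made by oligodendrocytes, which carry Mbp mRNA out along their processes and translate it near the growing sheath. Apolipoprotein E, encoded by Apoe, is a component of the lipoprotein particles that carry cholesterol and other lipids between brain cells, and is made mainly by astrocytes, and also by microglia. Extracellular vesicles are membrane-bound particles that cells release, and oligodendrocytes and astrocytes are among the brain cells known to release them. RefSeq lists 8 curated transcripts of Mbp and 4 of Apoe. The array files give 1 identifier per probe and no probe sequence, so which of these transcripts a probe detects is not known here.

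Both transcripts were bright on all 10 arrays and neither differed between CIE and Control beyond the spread between samples. At most 2.78% of the non-control probes of an array were brighter than Mbp, and at most 4.10% brighter than Apoe. The mean level of Mbp was 1.02-fold that of Control in CIE, and that of Apoe 0.944-fold. The 95% intervals ran from 0.632-fold to 1.65-fold for Mbp and from 0.565-fold to 1.58-fold for Apoe. The levels of Mbp and Apoe rose and fell together over the 10 arrays, whatever the group (Pearson r = 0.879, permutation p = 0.00213, n = 10). Adjusted over 7 relations, the permutation p was 0.0149 for r. It was 0.0585 for Spearman's rho of 0.794, which did not pass 0.05. In 3 of the 5 pairs of arrays with consecutive sample numbers, Mbp differed by at most 0.05 log2 units. In the other pairs it differed by 0.45 and -0.37 (CIE minus Control). Apoe differed by 0.16 to 0.60 in size over all 5 pairs. The labels do not say that such samples belong together, and Mbp was about as close in some other combinations of a Control and a CIE array.

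The brightness of a spot was read as processed intensity, which is linear and background-subtracted. On an array, 61.6% to 77.0% of all probes gave a signal well above background. The overall brightness of the arrays, as the 75th percentile of the non-control probes, ran from 69.7 to 192 intensity units. Levels below are log2 units above that percentile of the same array, so that a level of 7 is 7 doublings above it. Levels of different probes depend on the probe as well as on the RNA and were not set against each other. Control probes for human GAPDH stood apart on Control 7 and CIE 8 (2.80 and 3.49 for the 5' probe, against at most 0.47 on the other arrays), so results are also given without these arrays. Arrays of the same scan were taken to share a slide, and the word slide below means such a set. The 8 arrays scanned together, called slide 1, held 5 Control and 3 CIE arrays, and slide 2 held CIE 8 and CIE 10.

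The unscaled Mbp signal lay far above local background on every array. Its mean intensity over the spots was 14579 on Control 1, 16217 on Control 4, 20917 on Control 6, 15755 on Control 7 and 54124 on Control 9. The CIE values were 13763 on array 2, 14276 on array 3, 18115 on array 5, 9251 on array 8 and 40259 on array 10. Control 9 and CIE 10 were thus the brightest of their groups, and these arrays also had the highest 75th percentiles, 192 and 138. The raw spot signal of Mbp was between 681 and 3531 times its local background, and reached at most 7.67% of the scanner's saturation value. No spot of either gene was saturated.

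Unscaled Apoe signal followed the same arrays. Its mean intensity was 6490 on Control 1, 7324 on Control 4, 9645 on Control 6, 6727 on Control 7 and 20432 on Control 9. Those of CIE were 4440 on array 2, 7160 on array 3, 9408 on array 5, 3680 on array 8 and 12226 on array 10. The lowest signals of both genes were on CIE 8, the array with the lowest 75th percentile, and the highest were on Control 9. Before scaling, the span over the 10 arrays was 5.85-fold for Mbp and 5.55-fold for Apoe. After scaling it was 2.26-fold and 3.04-fold.

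Each probe was printed at 10 places on the array, which gave a measure of technical error within an array. Between 7 and 10 spots of Mbp and between 6 and 10 spots of Apoe were free of outlier flags and were used. The coefficient of variation over these spots was between 1.86% and 6.48% for Mbp and between 1.45% and 3.03% for Apoe. On the log2 scale the SD between spots was 0.06 for Mbp and 0.03 for Apoe (root mean square over arrays), against an SD between arrays of 0.49 and 0.53. The SD between arrays was thus 7.99 times that between spots for Mbp and 15.5 times for Apoe. The error of a group mean was therefore set by the differences between arrays. The 10 spots of an array cluster tightly in the plot of single spots, while the arrays lie far apart.

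**Figure D1:**
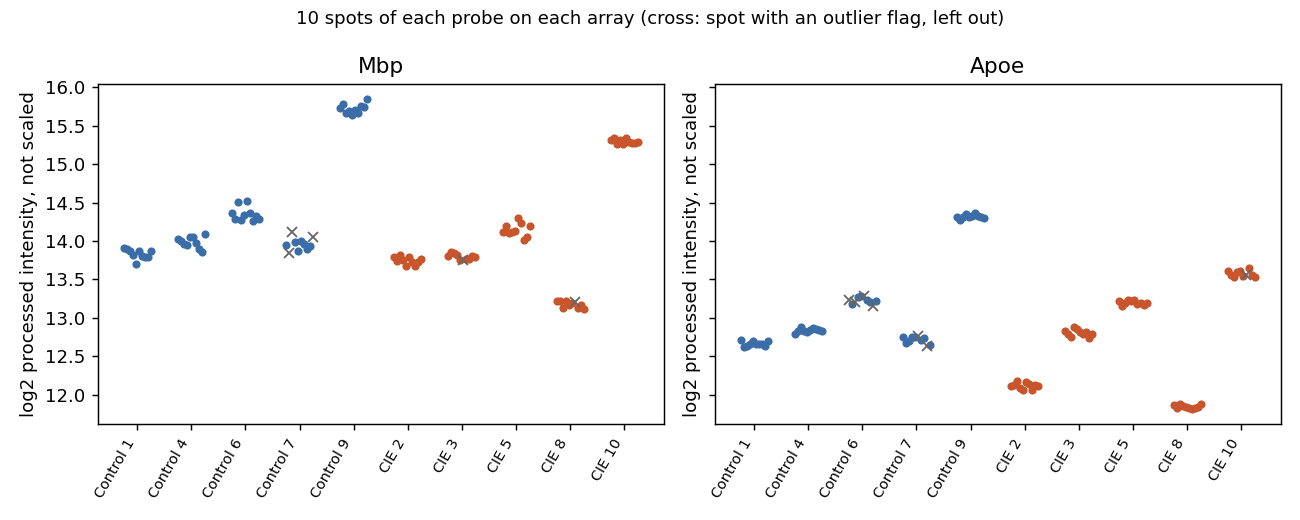
Log2 processed intensity, not scaled between arrays, of each of the 10 spots of the Mbp probe (left) and the Apoe probe (right), by array. Dots are spots that were used and crosses are spots with an outlier flag. Control 9 and CIE 10 were highest in their groups for both genes and CIE 8 was lowest of all arrays.

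The scaled level of Mbp was 7.01 on Control 1, 7.08 on Control 4, 7.97 on Control 6, 7.42 on Control 7 and 8.14 on Control 9. In CIE it was 7.04 on array 2, 7.52 on array 3, 7.96 on array 5, 7.05 on array 8 and 8.19 on array 10. The groups overlapped over nearly their whole range, with low and high arrays in both. Group means were 7.52 ± 0.51 (SD, n = 5) in Control and 7.55 ± 0.52 in CIE, which differ by 0.03 log2 units (SE 0.32, 95% interval -0.66 to 0.72, limma adjusted p = 0.994 over 43080 tested probes). The sign of this difference is not settled. Leaving out Control 1 gave -0.10 and leaving out Control 4 gave -0.08. Removal of CIE 5 gave -0.07 and that of CIE 10 gave -0.13. A block for slide gave -0.016, a value that rests on slide 1 alone, and removal of both Control 7 and CIE 8 gave 0.13.

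The scaled level of Apoe was 5.84 on Control 1, 5.93 on Control 4, 6.86 on Control 6, 6.20 on Control 7 and 6.73 on Control 9. The CIE levels were 5.41 on array 2, 6.53 on array 3, 7.02 on array 5, 5.72 on array 8 and 6.47 on array 10. The lowest and the highest of the 10 levels were both in CIE, and all Control levels lay between them. Group means were 6.31 ± 0.46 (SD, n = 5) in Control and 6.23 ± 0.65 in CIE, which differ by -0.08 log2 units (SE 0.34, 95% interval -0.82 to 0.66, limma adjusted p = 0.991). The sign of this difference turned too. Leaving out Control 6 gave 0.05 and leaving out Control 9 gave 0.02. Removal of CIE 2 gave 0.12 and that of CIE 8 gave 0.04. A block for slide gave 0.0059, and removal of both Control 7 and CIE 8 gave 0.015. Neither gene thus had a difference that passed the test. In these bulk samples the number of vesicles from a cell type and the transcript per vesicle cannot be told apart.

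**Figure D2:**
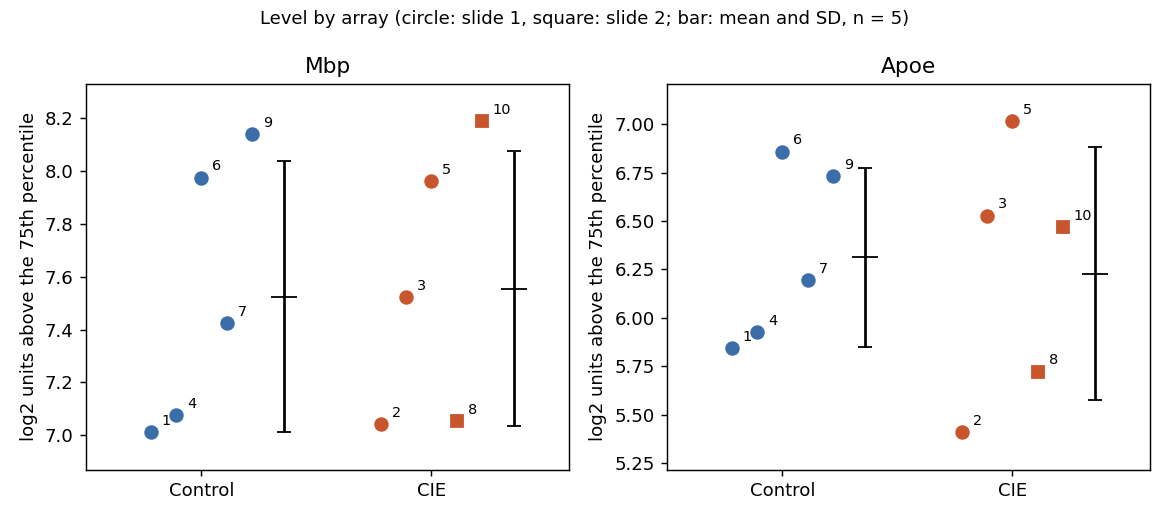
Level of Mbp (left) and Apoe (right) on each array, in log2 units above the array's 75th percentile, with sample numbers beside the points. Circles are arrays of slide 1, squares arrays of slide 2, and bars the mean and SD of 5 arrays. The Control and CIE points overlap for both genes, at means of 7.52 and 7.55 for Mbp and of 6.31 and 6.23 for Apoe.

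Over the whole array, limma called 0 of 43080 tested probes at an adjusted p under 0.05, or 0% of them, and neither Mbp nor Apoe was among the 921 probes (2.14%) with an unadjusted p under 0.05. Fits without moderation of the variances also called 0, with 1082 at the unadjusted level. The unadjusted count moved with single arrays, while the count of calls stayed at 0. Leaving out Control 9 lowered it to 402 (0.933%) and leaving out Control 4 to 412 (0.956%). Removal of CIE 10 raised it to 2345 (5.44%) and that of CIE 5 to 2347 (5.45%). All CIE arrays were above, or all below, all Control arrays in 139 probes (0.323%), and again neither gene was among them. The median log2 difference of all tested probes was -0.05, and that of the 43 named and tested genes 0.08. The spread of the 2 genes was ordinary for this array. The SD within groups was 0.52 for Mbp and 0.56 for Apoe, where the median over tested probes was 0.49, and 45.6% and 39.0% of tested probes had a larger one.

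The place of each probe in the brightness order of its own array needs no scaling between arrays. Of the 60823 non-control probes, the number brighter than Mbp was 1690 on Control 1, 1420 on Control 4, 755 on Control 6, 1067 on Control 7 and 792 on Control 9. In CIE it was 1422 on array 2, 1225 on array 3, 768 on array 5, 1137 on array 8 and 766 on array 10. Mbp was thus bright but not among the very brightest probes. The rank of Mbp was 1146 ± 405 (SD, n = 5) in Control and 1065 ± 290 in CIE, a difference of -81.2 places (exact permutation p = 0.746, two-sided), which was 55.1 without Control 1.

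The rank of Apoe was 2401 on Control 1, 2160 on Control 4, 1290 on Control 6, 1703 on Control 7 and 1601 on Control 9. In the CIE group it was 2494 on array 2, 1728 on array 3, 1184 on array 5, 1853 on array 8 and 1667 on array 10. The best place was on CIE 5 and the worst on CIE 2, so that the CIE arrays enclosed the Control arrays. Group means were 1831 ± 446 (SD, n = 5) in Control and 1785 ± 471 in CIE, a difference of -45.8 places (exact permutation p = 0.897, two-sided). It was 96.7 without Control 1, 36.4 without Control 4 and 104 without CIE 5. A rank describes the brightness of a probe, not the number of transcript copies, since probes bind their targets unequally.

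The ratio of Apoe to Mbp within an array is free of the scaling between arrays. The log2 ratio was -1.17 on Control 1, -1.15 on Control 4, -1.12 on Control 6, -1.23 on Control 7 and -1.41 on Control 9. In CIE it was -1.63 on array 2, -0.996 on array 3, -0.945 on array 5, -1.33 on array 8 and -1.72 on array 10. The size of this ratio depends on the probes, and only its change between arrays was compared. All 5 Control ratios lay between the lowest and the highest CIE ratio. The mean was -1.21 ± 0.12 (SD, n = 5) in Control and -1.32 ± 0.35 in CIE, a difference of -0.11 (exact permutation p = 0.508, two-sided). Leaving out CIE 2 gave -0.03 and leaving out CIE 10 gave -0.01, while removal of CIE 3 gave -0.19 and that of CIE 5 gave -0.21. On slide 1 alone it was 0.022 (exact permutation p = 0.964).

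Mbp and Apoe varied together from array to array. Over the 10 arrays Pearson's r between their levels was 0.879 (permutation p = 0.00213, two-sided, 0.0149 after adjustment over 7 relations) and Spearman's rho was 0.794 (permutation p = 0.00836, 0.0585 after adjustment). Without Control 9 and CIE 10, the arrays with Mbp farthest from its median, r was 0.956 (exact permutation p = 0.000496, n = 8). Within slide 1 it was 0.924 (exact permutation p = 0.00226, n = 8), and without Control 7 and CIE 8 it was 0.860 (exact permutation p = 0.0100, n = 8). With the group means removed it was 0.885. Both levels share the scaling value of the array, and its part in this r was not tested. The median r of Mbp with the other 42856 probes measured on all arrays was 0.10. Of those probes, 0.882% had an r with Mbp at least as high as Apoe had, and 1.81% had an r with Apoe at least as high as Mbp had. Among the 4 arrays with the highest Mbp the order was the opposite one: Mbp was highest on CIE 10, then Control 9, Control 6 and CIE 5, while Apoe was highest on CIE 5, then Control 6, Control 9 and CIE 10.

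**Figure D3:**
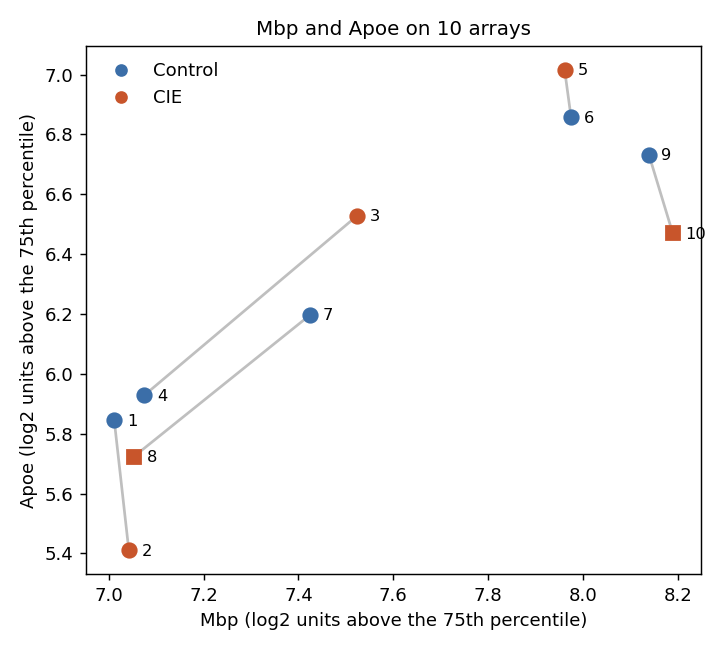
Level of Apoe against level of Mbp on the 10 arrays, both in log2 units above the array's 75th percentile, with sample numbers. Blue is Control and orange CIE, squares are arrays of slide 2, and grey lines join arrays with consecutive sample numbers. Low arrays (1, 2, 4 and 8) and high arrays (5, 6, 9 and 10) each hold Control and CIE samples.

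Measures of array quality were set beside the levels, and their differences between the groups were not tested. The percentage of probes well above background was 66.9% to 77.0% in Control and 61.6% to 75.2% in CIE. The 75th percentile was 83.2 to 192 in Control and 69.7 to 138 in CIE. The 3' minus 5' signal of mouse GAPDH was 0.11 to 0.91 in Control and 0.44 to 1.24 in CIE. Mbp had an r of 0.625 with the percentage of probes well above background (permutation p = 0.0587, 0.205 after adjustment over the 7 relations) and a rho of 0.685 (permutation p = 0.0345, 0.121 after adjustment). Without Control 9 and CIE 8 that r was 0.412 (exact permutation p = 0.308, n = 8). Apoe had an r of 0.464 with the same measure (permutation p = 0.179, 0.312 after adjustment) and a rho of 0.479 (permutation p = 0.168). The 3' minus 5' signal of the mouse GAPDH control probes, a sign of RNA integrity, had an r of -0.470 with Mbp (permutation p = 0.171) and of -0.367 with Apoe (permutation p = 0.301), and a rho of -0.479 and -0.394 (permutation p = 0.167 and 0.266). For the log2 of the 75th percentile r was 0.289 with Mbp (permutation p = 0.423) and 0.00 with Apoe (permutation p = 0.990), with a rho of 0.248 and -0.067 (permutation p = 0.494 and 0.865). None of these 6 relations passed after adjustment. Without the 2 arrays farthest from the median of each measure, r with the 75th percentile turned to -0.561 for Mbp and -0.524 for Apoe. It was -0.570 and -0.422 for the GAPDH measure, and 0.216 for Apoe with the percentage of probes well above background. On slide 1 alone, these r were 0.439 (Mbp) and 0.329 (Apoe) with that percentage, -0.338 and -0.293 with the GAPDH measure, and 0.022 and -0.213 with the 75th percentile. With the group means removed, r was 0.715 (Mbp) and 0.479 (Apoe) with that percentage. It was -0.564 and -0.379 with the GAPDH measure, and 0.332 and -0.032 with the 75th percentile. The part of these measures in the shared variation of Mbp and Apoe was not tested.

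Arrays were also compared by consecutive sample numbers, each pair holding a Control and a CIE array. The labels do not say that such samples belong together. Mbp differed by 0.03 between CIE 2 and Control 1, by 0.45 between CIE 3 and Control 4, by -0.01 between CIE 5 and Control 6, by -0.37 between CIE 8 and Control 7, and by 0.05 between CIE 10 and Control 9 (log2, CIE minus Control). It was thus nearly equal in 3 of 5 pairs, although it spanned 1.18 log2 units over the 10 arrays. Some arrays without consecutive numbers were about as close in Mbp, such as Control 4 (7.08) and CIE 8 (7.05). In the 5 pairs, in the order above, Apoe differed by -0.43, 0.60, 0.16, -0.47 and -0.26. The mean difference over the pairs was 0.03 for Mbp (exact p = 0.625 over 32 sign flips) and -0.08 for Apoe (exact p = 0.75). Inside the pairs the differences of the 2 genes had the same sign in 2 of 5.

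Genes whose pattern was most like that of Mbp or Apoe were taken from the other 42 named and tested genes by Pearson's r over the 10 arrays, as a description without a test. For Mbp these were Bambi, a decoy receptor of TGF-beta signalling (r = 0.917), Kcnn2, a potassium channel opened by calcium (r = 0.912), and Rps4l, a ribosomal protein S4-like transcript (r = 0.892), followed by Apoe. For Apoe they were Rps4l (r = 0.897), Mbp itself and Bambi (r = 0.876). Bambi was dim, well above background on 8 of 10 arrays, with a level from -3.86 on CIE 8 to -2.05 on Control 6. Rps4l was at 0.62 ± 0.34 (SD, n = 5) in Control and 0.50 ± 0.48 in CIE and may share signal with copies of the same gene family. Across all probes measured on all arrays, 237 had an r above 0.9 with Mbp and 409 with Apoe.

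Few genes of the same pathways were among the genes named here. The other probes of the array, whose names do not start with A_51_P, were not searched for them. Of 16 myelin genes and 10 of the oligodendrocyte lineage, Mbp was the only one with a named probe. Of 20 genes of lipid transport and 11 astrocyte markers, Apoe was the only one. Neither gene passed the test in either direction. Of 12 neuronal markers, 1 had a named probe, Chgb, which encodes the dense-core granule protein chromogranin B. It was at 5.04 ± 0.44 (SD, n = 5) in Control and 4.44 ± 0.74 in CIE and did not pass (limma adjusted p = 0.989). Of 10 reference genes, 1 had a named probe, Actb, which encodes the cytoskeletal protein beta-actin. Its level was 6.39 on Control 7 and 7.10 on CIE 8, the arrays on which human GAPDH stood apart, and between 4.79 and 5.55 on the other 8. Actb was at 5.42 ± 0.55 (SD, n = 5) in Control and 5.62 ± 0.87 in CIE and did not pass (limma adjusted p = 0.989). The difference of 0.20 was 0.07 without these arrays, -0.19 within slide 1 and -0.16 without scaling between arrays. Mbp and Apoe were not at the top of their groups on Control 7 or CIE 8. No named probe was found for the 11 microglial, 7 endothelial, 6 blood and 10 vesicle markers listed. The tissue and the cell types behind the Mbp and Apoe signal were therefore not checked against further markers. Whether other probes of the array detect such markers was not examined.

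The group differences of both genes were recomputed under 26 other settings. The log2 difference ranged from -0.33 to 0.18 for Mbp and from -0.45 to 0.12 for Apoe, and neither passed the threshold in any of them (limma adjusted p between 0.760 and 1.00 for Mbp and between 0.696 and 1.00 for Apoe). The lowest value of both came from signals that were not scaled between arrays. The plot of these settings shows intervals that include 0 throughout.

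**Figure D4:**
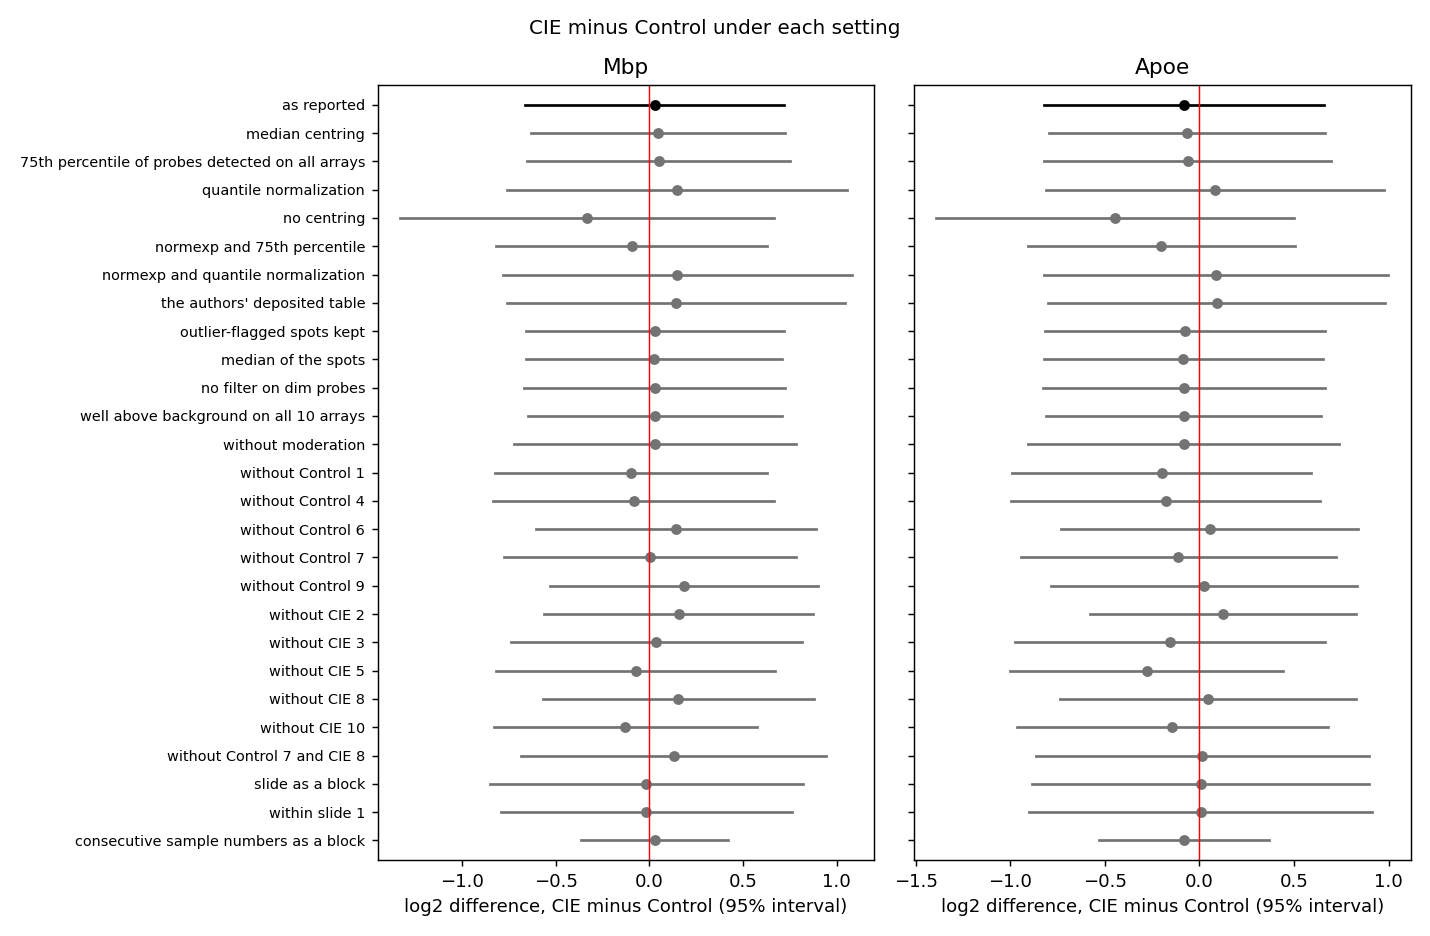
Log2 difference of CIE minus Control for Mbp (left) and Apoe (right), with its 95% interval, as reported (black) and under 26 other settings (grey). All intervals include 0, and the point estimates range from -0.33 to 0.18 for Mbp and from -0.45 to 0.12 for Apoe.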

How the data were processed

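Per the file headers, the 10 scanner files hold linear spot intensity as extracted by the authors (Feature Extraction version 11.0.1.1, from Agilent). About 3 µg of total RNA per sample was sent for labelling with Cy3, per the labels' protocols. The authors also deposited a table of the same arrays whose values were taken as log2. Its scaling is not stated, and it served as an alternative. Spots with an outlier flag were left out (27 to 150 non-control spots per array), the others averaged per probe as log2, and each array centred on its 75th percentile of non-control probes. Probes well above background (at least 50% of their spots) on at least 5 of 10 arrays were tested, 43080 or 70.8%. The test of CIE against Control used limma 3.58.1 in R 4.3.3 (lmFit, eBayes, Benjamini-Hochberg over all tested probes, threshold 0.05). Single values per array were compared by exact permutation over 252 relabelings, and correlations over 10 arrays by 100000 permutations. Scripts were tested on simulated data. The number of arrays limits the precision.

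Gene names came from RefSeq (assembly GRCm38.p6), with no coordinates, since the array files name an older build. They were looked up only for probes whose name starts with A_51_P. Genes named in the text were Mbp and Apoe, the 3 named genes most correlated with each, and members of gene lists that have a named probe. The members, lists, tests and alternatives were chosen with earlier results of these data known. The planned normexp correction and ranking used the median spot signal, as the files hold no mean signal.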

Additional observations from a re-analysis of the deposited data

Results flagged for a closer look

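In 8 of 48 sets of 5 values, 1 array lay far from the other 4, by a criterion that chance meets in about 1 of 20 sets. The sets were the 5 Control or the 5 CIE values of each measure described for Mbp, Apoe, the other named genes and the arrays. These sets share arrays and probes, so that the chance rate gives no expected count of sets. The unscaled intensity of Mbp was 54124 on Control 9, with the next Control array at 20917, and 40259 on CIE 10, with the next CIE array at 18115. The unscaled intensity of Apoe was 20432 on Control 9, with the next Control array at 9645. The raw signal on Control 9 was also 3531 times local background for Mbp and 1354 times for Apoe, where the next Control array had 1453 and 674. No array stood apart in this way in the scaled levels or the ranks of Mbp and Apoe, or in their ratio. The level of the human GAPDH 5' control probe was 2.80 on Control 7 and 3.49 on CIE 8, and that of Actb was 6.39 on Control 7, where the next Control array had 5.34.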

How the results depend on the processing

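No probe was called under any of the 26 alternatives, and no difference of Mbp, Apoe, their ratio or their ranks passed the threshold under any alternative run for it. The Mbp difference turned from 0.03 to -0.33 without scaling, to -0.095 under normexp with the 75th percentile, and to -0.016 both with a block for slide and within slide 1. Leaving out 1 array gave -0.13 to 0.18. The Apoe difference turned from -0.08 to 0.083 under quantile normalization, 0.089 when normexp came first, 0.091 in the authors' deposited table, 0.015 without Control 7 and CIE 8, and 0.0059 both with a block for slide and within slide 1. Leaving out 1 array gave -0.28 to 0.12. The log2 ratio of Apoe to Mbp turned from -0.11 to 0.022 within slide 1 and with a block for slide, and leaving out 1 array gave -0.21 to -0.01. Leaving out 1 array moved the rank difference of Mbp between -179 and 55.1 places and that of Apoe between -223 and 104. The cause of these turns was not tested, and the settings without some arrays also use fewer samples. The correlation of Mbp with Apoe stayed positive under its 22 alternatives, between 0.860 and 0.942, with a permutation p of at most 0.0100. With consecutive sample numbers as a block, the standard error fell from 0.32 to 0.18 for Mbp and from 0.34 to 0.20 for Apoe, with the differences unmoved. The count of probes at an unadjusted p under 0.05 rose in that fit from 921 to 6389 (14.8%), while the count of calls stayed at 0. The groups share no sample number and the labels pair no samples, so that block is a description only. The unadjusted count was also 2172 with a block for slide, 2475 within slide 1, 601 without Control 7 and CIE 8, and 1599 of 60823 with no filter on dim probes.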

Other observations

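The ratio of Apoe to Mbp was more uniform among Control arrays than among CIE arrays, a comparison chosen after the values were seen. Its SD was 0.12 log2 units in Control and 0.35 in CIE (n = 5 each), 3.08 times as large. The mean distance from the group median was 0.07 in Control and 0.28 in CIE (exact two-sided permutation p = 0.0476, or 0.143 when adjusted for the 3 measures compared this way). It thus failed the correction. Leaving out 1 array gave exact permutation p-values between 0.0159 and 0.0794, the highest without Control 1, and within slide 1, with 3 CIE arrays, the value was 0.536. For the level of Mbp the same measure was 0.41 in both groups (exact permutation p = 0.952), and for Apoe it was 0.36 in Control and 0.48 in CIE (exact permutation p = 0.627).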
